A study of Mus musculus with 6 samples.

Results

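The 10 genes described here belong to the muscle atrophy and autophagy programme that FoxO transcription factors switch on, together with both common metallothioneins. They are Foxo1, Foxo3, Fbxo32, Ulk1, Map1lc3a, Gabarapl1, Sqstm1, Bnip3, Mt1 and Mt2. They were chosen by name, as every probe whose platform annotation gives one of these symbols, which came to 17 of the 45281 probes on the array, for 10 of its 19057 named genes. Each probe is reported on its own. Probes of the same gene come from the same samples and are not independent, and whether they read the same transcript was not checked.

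In skeletal muscle, FoxO factors are held in the cytoplasm when insulin and IGF1 signal through Akt. When that signal falls they enter the nucleus and raise genes of protein breakdown by the proteasome and by autophagy. In autophagy, the Ulk1 kinase starts a membrane that grows around its cargo, small ubiquitin-like proteins of the LC3 and GABARAP families are attached to the membrane, and receptors such as p62 (Sqstm1) tie the cargo to them. Metallothioneins are small cysteine-rich proteins that bind zinc and copper, are induced by metals, glucocorticoids and oxidative stress, and rise in several kinds of muscle wasting.

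RNA of the tibialis anterior, a fast hindlimb muscle, came from male mice, 3 wild type and 3 Neb SH3-deleted, on a mixed Sv129/Black Swiss background at 8 weeks of age, and each sample was hybridised to 1 Illumina bead array. The Neb SH3-deleted mice lack the SH3 domain of nebulin, the giant thin filament protein, which lies at the end of the molecule anchored in the Z-disc. The labels call the samples biological replicates, and whether the mice carry 1 or both altered alleles is not given in the sources used here. The comparison asks whether these genes differ in level between the genotypes.

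The arrays were dim. A probe was counted as above background on an array where its deposited detection p-value was under 0.05, which held for 4000 to 5844 probes per array, and 3422 probes that were above background on at least 3 of the 6 arrays were tested. Of 15 fast muscle genes, 14 were tested, among them Acta1, Ckm and Pvalb, so the tissue read as fast skeletal muscle. These genes do not tell the tibialis anterior from another such muscle. The 1 probe of Neb was above background on 0 of 6 arrays (detection p 0.543 to 0.882) and does not check the genotype. Across all tested probes, 0 of 3422 passed an adjusted p of 0.05 by limma, where the smallest value after Benjamini-Hochberg adjustment was 0.984. In what follows, 3 values of a genotype stand in the order of replicates 1, 2 and 3.

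Of the 17 probes, 9 were tested, from 6 genes. These were 2 probes each of Fbxo32, Ulk1 and Map1lc3a and 1 each of Gabarapl1, Sqstm1 and Mt1. The other 8 probes, which include every probe of Foxo1, Foxo3, Bnip3 and Mt2 and the third probe of Fbxo32, were above background on fewer than 3 arrays, and 6 of them on 0 arrays. None of the 9 tested probes passed an adjusted p of 0.05 (limma, adjusted p 0.984 to 0.991, background 0%). At an unadjusted p under 0.05 there were 2, Mt1 and a probe of Ulk1, both higher in Neb SH3-deleted muscle, where 1.64% of all tested probes were higher and 2.66% lower at that threshold. The genes were chosen with earlier results of these data known, so the count supports nothing by itself.

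**Figure D1:**
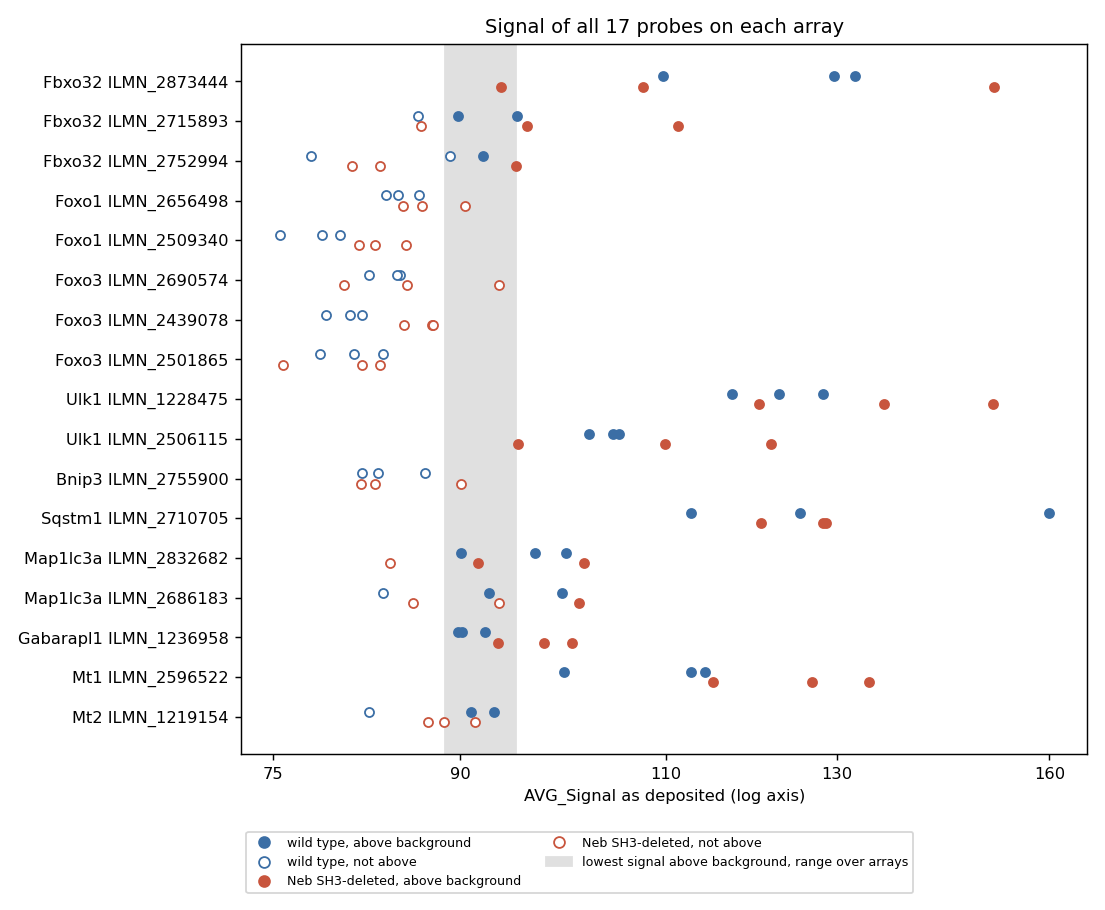
The deposited signal of all 17 probes on each of the 6 arrays, on a log axis, with wild type arrays in blue and Neb SH3-deleted arrays in red. Filled points were above background on that array (detection p under 0.05), open points were not, and the grey band spans the lowest signal counted as above background on each array (88.7 to 95.1). Every point of the Foxo1, Foxo3 and Bnip3 probes is open.

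Foxo1 and Foxo3, the FoxO factors that drive the programme, were not measured above background on any array. Foxo1 had 2 probes. The deposited signal of ILMN_2656498 was 83.8, 84.7 and 86.5 in wild type against 86.7, 85.1 and 90.4 in Neb SH3-deleted muscle, where the lowest signal above background was 88.7 to 95.1 depending on the array. The second probe of Foxo1, ILMN_2509340, read 75.5 to 80.1 in wild type and 81.6 to 85.4 in Neb SH3-deleted muscle, with detection p-values from 0.687 to 1. These values lie in the background, so their order across genotypes says nothing about the transcript.

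The 3 probes of Foxo3 behaved alike. ILMN_2690574 read 82.3 to 84.9 in wild type and 80.4 to 93.5 in Neb SH3-deleted muscle, ILMN_2439078 read 79.0 to 81.8 and 85.2 to 87.7, and ILMN_2501865 read 78.5 to 83.5 and 75.7 to 83.2. The detection p nearest to the threshold was 0.0887, for ILMN_2690574 on Neb SH3-deleted replicate 3. Much of FoxO activity is set by where the protein lies in the cell, which an mRNA array does not read.

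Fbxo32, the muscle ubiquitin ligase also called atrogin-1 and a classic FoxO target, varied more between animals of the same group than between genotypes. Its probe ILMN_2873444 was above background on all 6 arrays, with signals of 129.7, 132 and 109.7 in wild type against 93.7, 152 and 107.6 in Neb SH3-deleted muscle. Both the highest and the lowest array were Neb SH3-deleted, so the groups overlapped fully. After background correction and quantile normalization, the levels on the log2 scale were 5.63 ± 0.26 in wild type and 5.35 ± 0.77 in Neb SH3-deleted muscle (SD, n = 3 each), a log2 difference of -0.29 (95% interval -0.996 to 0.42, limma, adjusted p 0.984).

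The pooled within-group SD of this Fbxo32 probe was 0.57, larger than that of 98.1% of all tested probes, whose median SD was 0.21. The difference turned to 0.075 without Neb SH3-deleted replicate 1 and went to -0.69 without Neb SH3-deleted replicate 2. Its second tested probe, ILMN_2715893, was above background on 2 arrays of each group and gave the opposite sign, 4.42 ± 0.13 against 4.65 ± 0.51 (log2 level, SD, n = 3 each), a log2 difference of 0.23 (-0.29 to 0.75, limma, adjusted p 0.984). This probe was also highest in Neb SH3-deleted replicate 2, at 5.21, with the other 5 arrays between 4.23 and 4.52. Without that array the difference was -0.053.

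The third probe of Fbxo32, ILMN_2752994, was above background on 1 array of each group and was not tested. The Neb SH3-deleted array on which it was above background was again replicate 2, with a detection p of 0.0032. All 3 probes of Fbxo32 were thus highest in the same Neb SH3-deleted animal.

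Trim63, which encodes the other classic atrophy ligase, MuRF1, had 1 probe (ILMN_3161060). It was above background on 1 of the 6 arrays, also Neb SH3-deleted replicate 2, with a signal of 93.1 and a detection p of 0.0107, and was not tested.

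**Figure D2:**
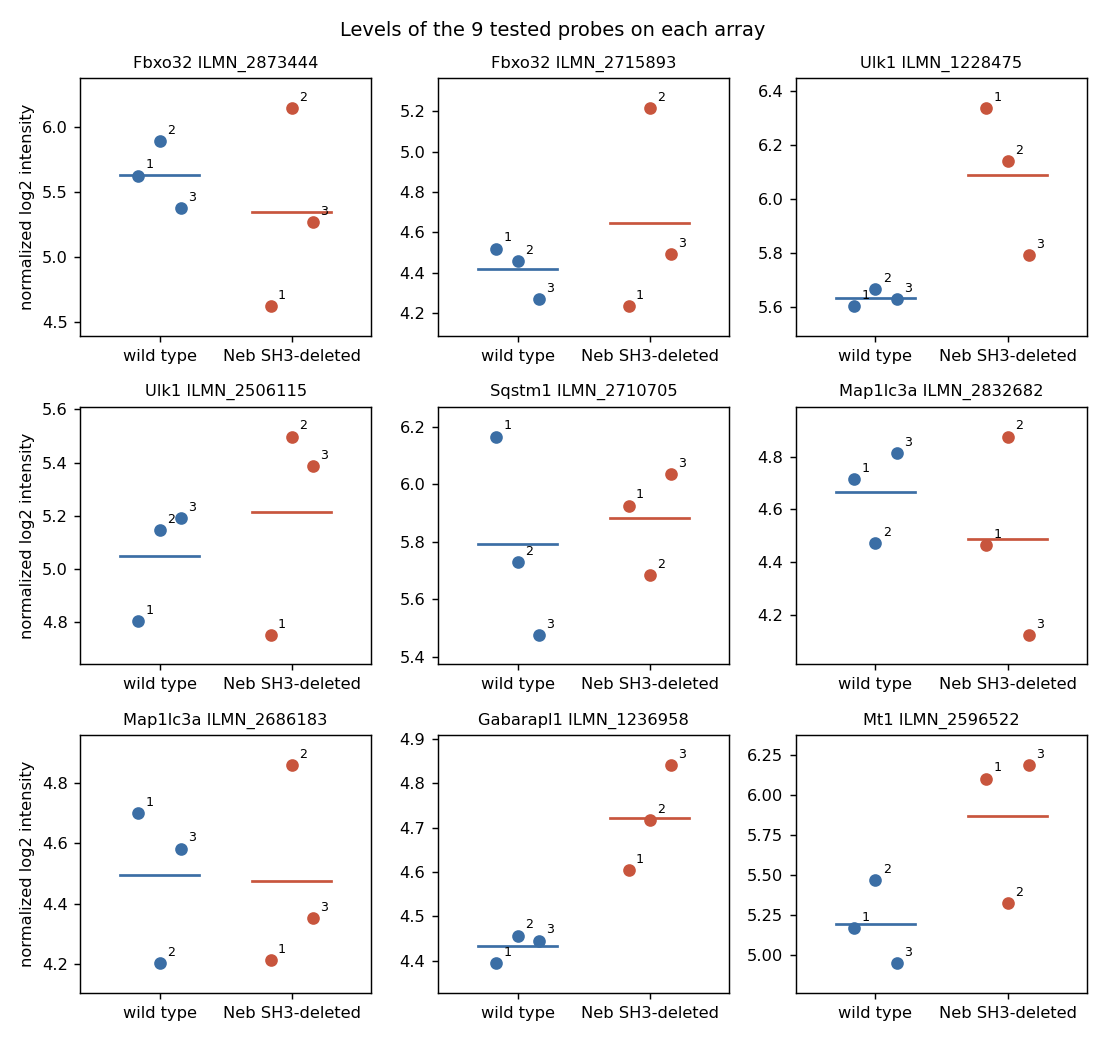
Normalized log2 levels of the 9 tested probes, 1 panel per probe with its own axis, with points for single arrays numbered by replicate and bars at the group means (n = 3 each). Both Fbxo32 and both Map1lc3a probes are highest in Neb SH3-deleted replicate 2, while the groups do not overlap for Ulk1 ILMN_1228475 and for Gabarapl1.

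Ulk1, the kinase that starts autophagy, was read by 2 probes that were above background on all 6 arrays. For ILMN_1228475 the log2 levels were 5.60, 5.67 and 5.63 in wild type against 6.34, 6.14 and 5.79 in Neb SH3-deleted muscle. The wild type arrays lay close together (SD 0.03) and all Neb SH3-deleted arrays lay above them (SD 0.28). Groups that do not overlap, with Neb SH3-deleted higher, were found for 2 of the 9 tested probes and for 3.24% of all tested probes. Non-overlapping groups with Neb SH3-deleted lower were found for 0 of the 9 and for 5.82% of all. The log2 difference was 0.46, or 1.37-fold (95% interval 0.07 to 0.84, unadjusted p 0.0242, adjusted p 0.984 by limma).

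Processing moved this value. In the deposited signals the groups overlapped, at 128, 123 and 117 against 136, 151 and 120.5, and they overlapped with median scaling too, where the difference was 0.32 (unadjusted p 0.122). It was 0.21 both without background correction and in the authors' processed values. With single arrays left out it ran from 0.33, without Neb SH3-deleted replicate 1, to 0.61, without Neb SH3-deleted replicate 3. Its unadjusted p was over 0.05, and so missed that threshold, under 8 of 19 alternatives (limma). Without single arrays it was 0.0641 (wild type replicate 1), 0.0541 (wild type replicate 3), 0.0938 (Neb SH3-deleted replicate 1) and 0.0596 (Neb SH3-deleted replicate 2), all by limma. It was 0.0505 where every array needed a detection p under 0.01, 0.0772 with a trended, robust variance, and 0.124 without both arrays that stood apart on the first principal component.

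The second probe of Ulk1, ILMN_2506115, gave log2 levels of 4.805, 5.15 and 5.19 in wild type against 4.75, 5.50 and 5.39 in Neb SH3-deleted muscle. The groups overlapped, with replicate 1 lowest in each. The log2 difference was 0.16 (-0.31 to 0.64, limma, adjusted p 0.984). It had the same sign as the first probe, but the probes disagreed on Neb SH3-deleted replicate 1, which was the highest array for ILMN_1228475 and the lowest for ILMN_2506115. Over the 6 arrays the probes correlated at -0.06 (Pearson, a description), against 0.75 for the tested pair of Fbxo32 and 0.75 for the pair of Map1lc3a.

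Among the ubiquitin-like proteins of the autophagic membrane, Gabarapl1, a GABARAP family member and FoxO target, was the most even within groups. Its log2 levels were 4.39, 4.46 and 4.45 in wild type against 4.605, 4.72 and 4.84 in Neb SH3-deleted muscle (ILMN_1236958). The groups did not overlap, and 4.004% of tested probes had a smaller within-group SD (0.09). The log2 difference was 0.29, or 1.22-fold (95% interval -0.04 to 0.62, unadjusted p 0.0814, adjusted p 0.984 by limma).

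The deposited signals of Gabarapl1 also kept the groups apart, at 92.3, 89.8 and 90.2 against 93.4, 97.7 and 100.4, as did all 7 scalings compared, of which the deposited signals are 1. These signals were close to the lowest signal above background, and all wild type detection p-values were between 0.0224 and 0.0385. The size of the difference therefore rested on the background step. It was 0.08 without background correction and 0.12 with an offset of 50, and ran from 0.23 to 0.35 with single arrays left out.

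Map1lc3a, which encodes LC3A, did not separate the genotypes. Its probe ILMN_2832682 was above background on every wild type array and on 2 of the Neb SH3-deleted arrays, with log2 levels of 4.72, 4.47 and 4.81 in wild type against 4.47, 4.88 and 4.12, and a log2 difference of -0.18 (-0.63 to 0.28, limma, adjusted p 0.984). Its probe ILMN_2686183 was above background in 2 wild type samples and in 1 Neb SH3-deleted sample, with log2 levels of 4.70, 4.20 and 4.58 against 4.22, 4.86 and 4.35, and a log2 difference of -0.02 (-0.48 to 0.44, limma, adjusted p 0.991). Both were highest in Neb SH3-deleted replicate 2.

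Of the cargo receptors, Sqstm1, which encodes p62, was above background on all 6 arrays. Its log2 levels (ILMN_2710705) were 6.17, 5.73 and 5.48 in wild type against 5.93, 5.68 and 6.03 in Neb SH3-deleted muscle. Wild type replicates 1 and 3 were the highest and the lowest array. The log2 difference was 0.09 (-0.35 to 0.53, limma, adjusted p 0.984), and it turned to -0.078 with median scaling and to -0.067 without wild type replicate 3.

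Bnip3, a mitochondrial membrane protein that marks mitochondria for autophagy and a FoxO target, had 1 probe (ILMN_2755900). It read 81.7 to 87.0 in wild type and 81.7 to 90.1 in Neb SH3-deleted muscle, and was above background on 0 arrays.

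Mt1 had the largest difference of the 9 tested probes. Its deposited signals (ILMN_2596522) were 112.8, 114.3 and 99.6 in wild type against 127, 115.2 and 134 in Neb SH3-deleted muscle, with a detection p of 0 on every array. In these signals all Neb SH3-deleted arrays were above all wild type arrays, though the highest wild type array (114.3) was close to the lowest Neb SH3-deleted array (115.2). After normalization the log2 levels were 5.17, 5.47 and 4.95 against 6.10, 5.33 and 6.19, and Neb SH3-deleted replicate 2 fell below wild type replicate 2, so that the groups overlapped. The group levels were 5.20 ± 0.26 and 5.87 ± 0.48 (SD, n = 3 each).

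The log2 difference of Mt1 was 0.67, or 1.596-fold (95% interval 0.14 to 1.21, unadjusted p 0.0176). By unadjusted p it ranked 38 among the 3422 tested probes, and its adjusted p was 0.984 (limma). The difference was positive under each of the 13 alternatives that can change it, from 0.27 with the authors' processed values to 0.95 without Neb SH3-deleted replicate 2, while the other 6 alter only which probes are tested, the replicate block, the variance model or the threshold and leave the difference as it is. Its unadjusted p rose to 0.0645, 0.0761 and 0.0677 without Neb SH3-deleted replicate 1, Neb SH3-deleted replicate 3 and wild type replicate 3. In whole muscle, more cells of a type that makes the transcript and more transcript per cell cannot be told apart.

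Mt2, which encodes the closely related metallothionein 2, did not show the same. Its probe (ILMN_1219154) read 93.0, 91.0 and 82.4 in wild type against 88.6, 87.2 and 91.3 in Neb SH3-deleted muscle. It was above background in 2 wild type samples and in 0 Neb SH3-deleted samples, and was not tested. With the lowest level above background set as the bound for the Neb SH3-deleted arrays (mean log2 4.42), the wild type mean of 4.37 lay under it, so no fold is given. The mRNAs of Mt1 and Mt2 are similar, and whether the probe of one also reads the other was not tested.

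The start regions of both metallothionein genes are shown because metal response elements, the sites of the zinc-sensing factor MTF1, are what is best known to raise both genes. They lie 6471 bases apart on chromosome 8, and the sequences are RefSeq's (GRCm38.p6, plus strand, 250 bases before to 50 after the annotated start), with matches to the element's core in capitals. The core was searched as TGCACNC and TGCGCNC on both strands, and no matches overlapped.
Mt1 chr8:94178839-94179138: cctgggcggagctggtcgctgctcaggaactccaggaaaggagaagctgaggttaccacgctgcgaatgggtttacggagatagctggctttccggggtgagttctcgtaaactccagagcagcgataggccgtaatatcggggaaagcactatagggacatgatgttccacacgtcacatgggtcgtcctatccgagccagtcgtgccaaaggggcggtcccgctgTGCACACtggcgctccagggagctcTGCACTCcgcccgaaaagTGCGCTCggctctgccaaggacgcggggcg
Mt2 chr8:94172368-94172667: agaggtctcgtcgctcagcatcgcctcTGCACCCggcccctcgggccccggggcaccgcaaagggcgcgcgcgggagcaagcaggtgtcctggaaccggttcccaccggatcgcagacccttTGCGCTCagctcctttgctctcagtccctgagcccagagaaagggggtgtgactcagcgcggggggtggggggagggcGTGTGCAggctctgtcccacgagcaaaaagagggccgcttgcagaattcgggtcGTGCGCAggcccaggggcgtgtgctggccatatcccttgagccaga
Mt1 held 3 matches and Mt2 held 4, where 25.7% of 32851 promoter windows of the same length held at least 1 and 1.97% at least 3. Counted from the annotated start as base 1, the matches in Mt1 began at bases -23, 3 and 21 and those in Mt2 at -223, -128, -50 and 5. The search was for letters and does not show binding. Whether transcription in this muscle begins at the annotated start was not checked, so the positions hold for that annotation only. Elements outside the windows were not counted. Windows were at hand for 8 of the 10 genes, without Fbxo32 and Map1lc3a. None of the 8 held the FoxO binding element GTAAACA, which 3.65% of all windows held, or the TFEB core TCACGTGA (0.974% of all windows), which says only that these letters are not in these windows.

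**Figure D3:**
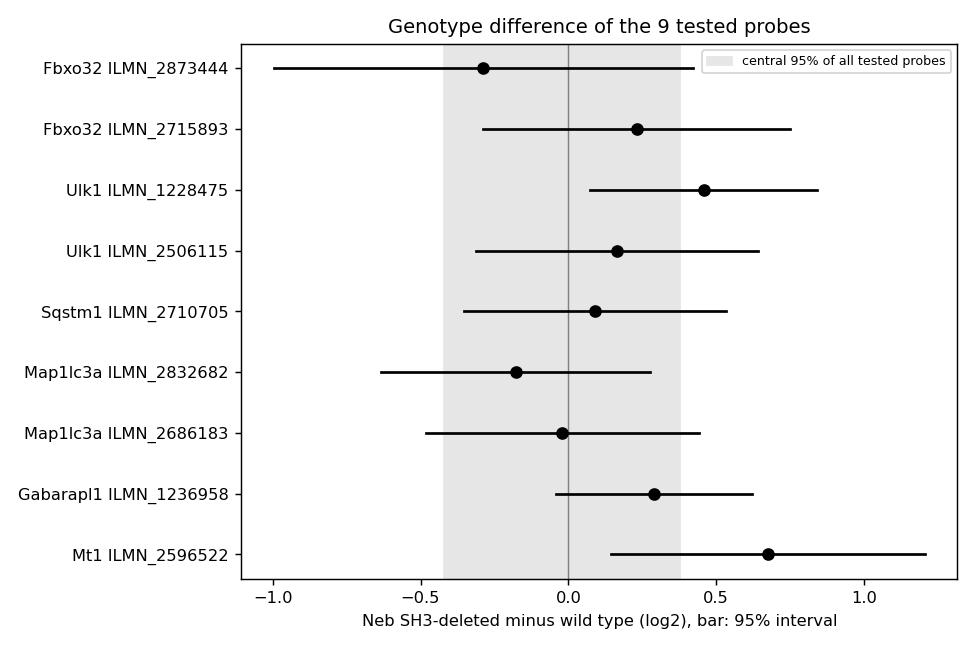
The log2 difference between Neb SH3-deleted and wild type muscle for the 9 tested probes, with 95% intervals from limma (n = 3 per group). The grey band holds the central 95% of the differences of all 3422 tested probes, from -0.42 to 0.38. The points of Mt1 and of Ulk1 ILMN_1228475 lie outside the band, and every other interval crosses 0.

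Across the tested probes, 6 lay higher and 3 lay lower in Neb SH3-deleted muscle, with a median log2 difference of 0.16, where 43.86% of all tested probes were higher and their median was -0.03. Without the filter, 10 of all 17 probes were higher and 7 lower, with a median of 0.03 against 0.00034 over all 45281 probes. These counts describe the probes and were given no test. The median half-width of a 95% interval was 0.40 on the log2 scale over all tested probes, so differences of the size seen for Gabarapl1 were within what 3 arrays per group leave uncertain.

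The arrays on which the probes peaked differed by gene. Neb SH3-deleted replicate 2 was the highest array for 5 of the 9 tested probes, both of Fbxo32, both of Map1lc3a and 1 of Ulk1, and it was the highest array for 15.25% of all tested probes. It was the lowest Neb SH3-deleted array for Mt1 and for Sqstm1. Neb SH3-deleted replicate 1 was the lowest array for 3 of the 9, both probes of Fbxo32 and 1 of Ulk1, and the lowest for 21.04% of all tested probes. On the first principal component (32.57% of the variance over tested probes) this array stood apart together with wild type replicate 2, at 12.4 and 10.7, with the other 4 arrays between -6.64 and -5.09. Without both arrays the log2 difference of Mt1 was 0.70, that of Ulk1 ILMN_1228475 0.35, that of Ulk1 ILMN_2506115 0.44 and that of Gabarapl1 0.36, while Fbxo32 ILMN_2873444 turned to 0.21.

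By Pearson correlation over the 6 arrays, the tested probe of another gene most like Mt1 was that of Dapk1, a death-associated protein kinase (0.99). The one most like Ulk1 ILMN_1228475 was that of Dmpk, the myotonic dystrophy kinase (0.97), and the one most like Gabarapl1 was that of Mfsd11 (0.97). Fbxo32 ILMN_2873444 was most like Mtres1 (0.99), Map1lc3a ILMN_2832682 most like Tmem131 (0.996) and Sqstm1 most like Dgka, a diacylglycerol kinase (0.95). Each is the highest value over tested probes of other named genes, of the 2964 tested probes with a symbol. Probes without a symbol were left out. The lowest log2 levels of Dapk1 (4.20), Mfsd11 (4.23), Mtres1 (4.32) and Dgka (4.33) were close to background. Those of Tmem131 and Dmpk were 4.45 and 6.91. Each correlation was computed from 6 arrays and describes these arrays only.

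The rest of the pathway was sparsely measured. In 8 lists of related genes, each gene was read by its probe of highest mean level. By limma, 0 genes of any list passed an adjusted p of 0.05. The background was 0% of 3011 entries, which are 2553 named genes and the tested probes without a single symbol. The list of autophagy start and membrane genes had 4 of 17 genes tested, of which 1, Ulk1, was above background on all 6 arrays. Beside Ulk1, Wipi2, a phosphoinositide-binding protein of the growing membrane, was at 0.11, Wipi1 at 0.05 and Atg101, a partner of Ulk1, at -0.10. The list of ubiquitin-like conjugation had 7 of 15 genes tested, 2 higher and 5 lower (median -0.07). Of these 7, 3 were above background on all 6 arrays. Atg5, part of the conjugating complex, was at -0.14, Atg16l1, its partner, at -0.10 and Gabarap at -0.07 (log2 differences). Atg5 was detected in 2 wild type samples and 1 Neb SH3-deleted sample and Atg16l1 in 2 of each, so their values lay close to background. Gabarapl1 was 1 of the 2 higher members of that list. Of the cargo receptors and mitophagy genes, Sqstm1 and Fundc1, a mitochondrial receptor, were the 2 of 13 tested, with Fundc1 at 0.23. The limma intervals of Wipi2, Wipi1, Atg101, Atg5, Atg16l1, Gabarap and Fundc1 all crossed 0.

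The list of atrophy ligases and proteasome partners had 8 of 20 genes tested, 5 higher and 3 lower (median 0.15). Its genes of smallest unadjusted p were Psmd4, a ubiquitin receptor of the proteasome, at 0.43 (95% interval -0.06 to 0.93), Asb2, a muscle ubiquitin ligase subunit, at 0.36 (-0.13 to 0.85) and Psmc4, a proteasome ATPase, at 0.30 (-0.16 to 0.77). Of FoxO factors and the kinases above them, 9 of 23 were tested, 5 higher and 4 lower (median 0.02). Above background on all 6 arrays were 2 of the 9. Irs2, an insulin receptor substrate, was at 0.23 (-0.31 to 0.77). Prkaa2, a catalytic subunit of AMP kinase, was at -0.16 (-0.54 to 0.22) and Pdpk1, which activates Akt, at -0.15 (-0.53 to 0.23). Of the 23 genes, 7 were above background on 0 arrays.

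Other FoxO target genes had 7 of 20 tested, 4 higher and 3 lower (median 0.00204). The genes of smallest unadjusted p were Lpl, lipoprotein lipase, at -0.68 (-1.02 to -0.34), Bcl6, a transcriptional repressor, at -0.56 (-1.12 to -1.7e-05) and Sod2, the mitochondrial superoxide dismutase, at 0.24 (-0.18 to 0.66). The lysosome list had 4 of 20 tested, 3 higher and 1 lower (median 0.14), with Cd63, a lysosomal membrane protein, at 0.25, Lamp1 at 0.17 and Atp6v0d1, a subunit of the proton pump, at -0.14. Further probes of Cd63 and Atp6v0d1 had the opposite sign, at -0.27 and 0.13.

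In the list of metal and glucocorticoid response, Mt1 was the only tested gene that lay higher. Of 24 genes 4 were tested, and the other 3 were lower, with Hsd11b1, which regenerates active glucocorticoid, at -0.25 (-0.62 to 0.11), Tsc22d3, a glucocorticoid-induced gene, at -0.14 (-0.60 to 0.32) and Cebpb, a transcription factor, at -0.05 (-0.47 to 0.37). Hsd11b1 and Tsc22d3 were each detected in 2 wild type samples and 1 Neb SH3-deleted sample, so their values lay close to background. For them the filter favoured a lower Neb SH3-deleted level. Of the 24 genes, 10 were above background on 0 arrays. Over all 3011 entries, named genes and probes without a single symbol, 1347 were higher and 1664 lower, with a median of -0.02.

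**Figure D4:**
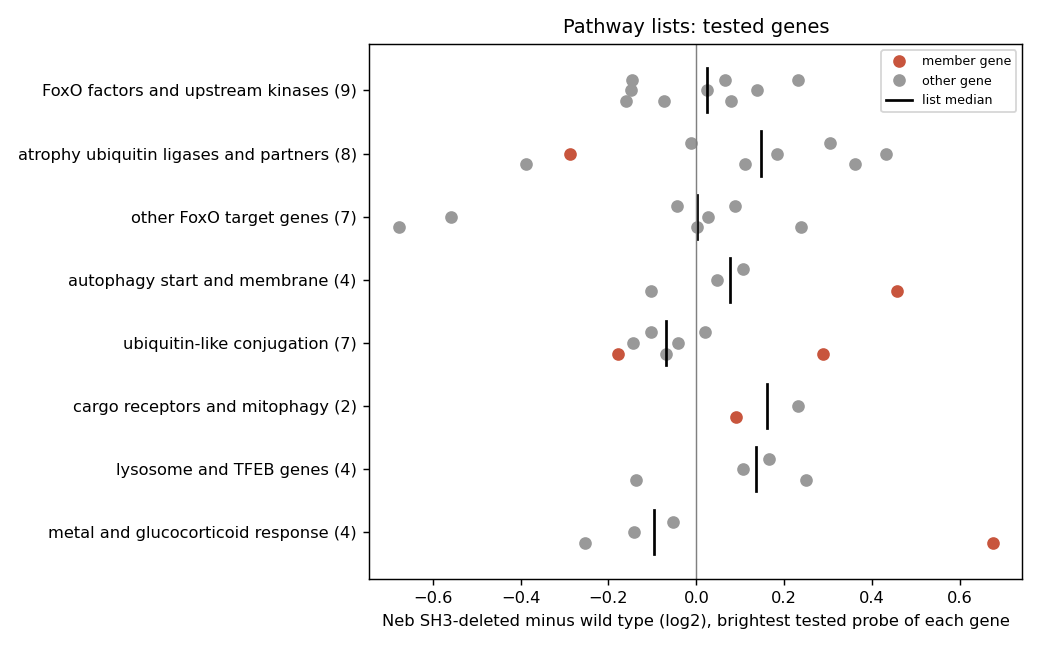
Log2 difference of each tested gene in the 8 pathway lists, by its probe of highest mean level, with the number of tested genes in brackets, the 6 measured genes of the set in red, other genes in grey and list medians as black bars. Mt1 and Ulk1 are the highest points of their lists, and Lpl and Bcl6 the lowest of the other FoxO targets.

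Markers of other cell types were mostly near background. Summed over 3 tested globin genes, erythrocyte signal ran from 274 to 631 in wild type and from 636 to 672 in Neb SH3-deleted muscle (linear normalized intensity). Pecam1 and Rgs5, the 2 of 8 endothelial and pericyte markers tested, summed to 50.8 to 62.1 in wild type and 42.6 to 48.9 in Neb SH3-deleted muscle, while Tie1, Pdgfrb and Fabp4 were above background on 0 arrays. Of the fibroblast markers 3 of 8 were tested (73.7 to 109.6 against 89.3 to 105.5), of the macrophage and leukocyte markers 1 of 7 (28.0 to 45.8 against 21.3 to 52.1), of the adipocyte markers 1 of 6 (19.3 to 21.2 against 20.2 to 23.8) and of the satellite cell markers 1 of 5 (25.5 to 28.0 against 20.4 to 25.3). Ptprc, Adgre1, Itgam, Plin1, Cidec, Retn, Pax7, Myf5, Cdh15 and Postn were above background on 0 arrays. The erythrocyte sum lay higher on all Neb SH3-deleted arrays than on all wild type arrays, though the nearest sums almost touched (631 and 636). Of its 3 genes, Hbb-bs did not overlap between the groups, while Hba-a1 and Hbb-bt did. The endothelial sum and Itga7, the only tested gene of the satellite cell list, lay lower on all Neb SH3-deleted arrays than on all wild type arrays. With Pax7, Myf5 and Cdh15 not measured, Itga7 alone does not show the number of satellite cells. Pecam1 was detected in 3 wild type samples and 0 Neb SH3-deleted samples, Itga7 in 3 and 1, and Rgs5 in 3 and 3. For Pecam1 and Itga7 the filter thus favoured a lower Neb SH3-deleted level, which lay mostly at background. Of all tested probes, 3.24% lay higher and 5.82% lay lower in Neb SH3-deleted muscle without overlap. The part of these markers in the differences of Mt1, Ulk1 and Gabarapl1 was not tested.

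**Figure D5:**
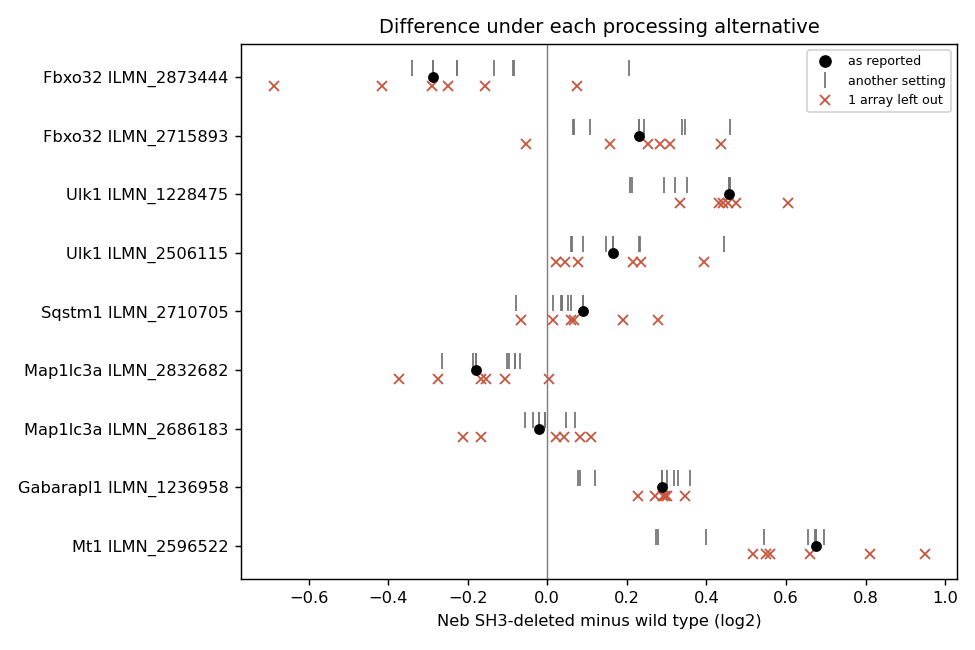
The log2 difference of each tested probe as reported (black point), under another setting of the processing (grey bars) and with 1 array left out (red crosses). Mt1, both Ulk1 probes and Gabarapl1 stay above 0 throughout, and the Fbxo32, Map1lc3a and Sqstm1 probes cross 0 at least once.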

How the data were processed

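Per the file headers, the authors deposited each probe's AVG_Signal, a bead signal intensity that is not normalized, with a detection p-value per array. The authors also deposited processed values on a log2-like scale with 1 shared distribution. The submitters' processing notes name lumi, with neither version nor settings in the sources used here, and a variance-stabilized scale in place of log2 is possible.

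Background was removed by normexp, fitted from the detection p-values as in limma (offset 16), and the log2 values of all probes were quantile normalized. The 3422 probes under a detection p of 0.05 on 3 or more of the 6 arrays were kept, a filter that favours probes high in either group. Every probe was fitted on its own by lmFit and eBayes (limma 3.58.1, R 4.3.3), two-sided and without covariates, and p-values were adjusted over all 3422 by Benjamini-Hochberg. The path was tested on simulated data with set fold changes and noise. That test does not show how small a difference these arrays could find. Symbols came from the platform annotation (34885 probes with 1 symbol, 18 with several, 10378 with none), of which 34807 matched RefSeq by Entrez number, with 0 symbols changed.

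Named genes were every probe of the 10 genes, Trim63, and from each pathway list up to 3 other tested genes of smallest unadjusted p, with the probe of another gene most like a member over the arrays. Cell type markers are named beside them, chosen after their values were seen. The genes and lists were chosen with earlier results of these data known. The labels call replicates biological, and replicate numbers were not taken to pair mice, since no label says that they do. Deviations from the group means of same-numbered arrays correlated at -0.22, -0.18 and 0.09, which with 3 arrays a group cannot decide whether mice were paired. With 3 arrays a group, their number limits the precision. Alternatives changed the background step, normalization, filter, variance model and arrays used.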

Additional observations from a re-analysis of the deposited data

How the results depend on the processing

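The number of probes past the adjusted threshold, over all probes and over the members, stayed at 0 under all 19 alternatives (limma), with 36 to 1895 probes at an unadjusted p under 0.05 against 147 as reported, the lowest where each of the 6 arrays needed a detection p under 0.01 (1141 probes tested) and the highest with no filter (45281 tested). The member probes at an unadjusted p under 0.05 numbered 2 as reported, 3 with no filter, and 0 without wild type replicate 3 or without Neb SH3-deleted replicate 1. With no filter the third was Gabarapl1 (unadjusted p 0.0032, adjusted p 0.966, limma). Its unadjusted p was 0.0814 as reported, 0.119 with a trended, robust variance and 0.195 without Neb SH3-deleted replicate 3. With the replicate block 0 probes passed and 2 members stayed under an unadjusted p of 0.05 (Mt1 0.0389, Ulk1 ILMN_1228475 0.0356). An adjusted p of 0.1 called 0. Of the alternatives, 6 alter only which probes are tested, the replicate block, the variance model or the threshold and cannot change a difference. Under the other 13, 105 of 117 differences of member probes kept their sign and 12 turned. Fbxo32 ILMN_2873444 turned to 0.075 without Neb SH3-deleted replicate 1 and to 0.21 without both arrays apart on the first component, ranging from -0.69 to 0.075 with single arrays left out, and Fbxo32 ILMN_2715893 ranged from -0.053 to 0.44. Map1lc3a ILMN_2686183 turned to 0.046 with cyclic loess and 0.069 with median scaling and ranged from -0.21 to 0.11 with single arrays left out, turning also without wild type replicates 1 (0.082) and 3 (0.023) and Neb SH3-deleted replicate 3 (0.041). Map1lc3a ILMN_2832682 ranged from -0.37 to 0.0042. Sqstm1 turned to -0.078 with median scaling and ranged from -0.067 to 0.28. The cause of these turns was not tested. A slide block could not be fitted, since no slide is named in these sources. Under other scalings the median of all differences was -0.011 to -0.0016, against -0.029 as reported. Signal over background limits every value here.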
